A study of Mus musculus with 2 samples.

Results

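The genes described here are 10 apolipoprotein genes of liver lipoproteins (Apoa1, Apoa2, Apoa4, Apoa5, Apob, Apoc1, Apoc2, Apoc3, Apoe and Apom), taken by symbol from the 22180 genes measured. All 10 had a value, each from 1 probe set. The study compared the livers of male wild-type (WT) mice with those of male E4bp4-LKO mice, which the study describes as deficient in E4bp4. Mice of both genotypes were given a high-fat diet from the age of 2 months for 12 weeks, having been kept on regular chow. RNA of several mice was pooled for each genotype and hybridised to 1 Affymetrix array, so each group is 1 pool. The labels used here do not say how many mice made up a pool, how the allele was made or at which hour livers were taken. Nothing below has a replicate error, and no difference was tested.

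Apolipoproteins are the protein part of lipoproteins, the particles that carry triglyceride and cholesterol in blood, and hepatocytes make most of those in plasma. Apolipoprotein B is built into very low density lipoprotein (VLDL) as the particle forms, whereas the smaller, exchangeable apolipoproteins move between particles, activate or hinder the enzymes that remove triglyceride, and serve as ligands for receptors. E4BP4, encoded by Nfil3, is a basic leucine zipper repressor that binds the D-box, the DNA element used by the activators DBP, TEF and HLF.

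The values are log2 intensities on a scale that reached 12.78 on the WT array and 12.82 on the E4bp4-LKO array. Genes were called above the floor when their mean over both arrays exceeded 4.20, the median over genes, and 11090 genes did. All 10 apolipoproteins lay far above it, between 7.85 and 12.53. Array signals flatten near the top of such a scale, which leaves less room for a difference there. Differences below are E4bp4-LKO minus WT, so a positive one means a higher value in the E4bp4-LKO pool. Nfil3, the targeted gene, was at 5.94 on the WT array and 4.47 on the E4bp4-LKO array. The hepatocyte markers were strong on both arrays, with albumin (Alb) at 12.77 on each.

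None of the 10 apolipoproteins differed by 1.5-fold or more between the pools, against 3.57% of the genes above the floor and 3.1% of the 1872 genes with a mean of at least 8.09, the lowest mean among the 10, here called bright genes. The array of the E4bp4-LKO pool gave the higher value for 7 of the genes and the lower value for 3, where 45.6% of the bright genes and 45.5% of those above the floor were higher. Their median difference was 0.11 on the log2 scale, beside -0.02 over all genes above the floor and -0.01 over the 1872 bright genes. The differences ranged from -0.30 for Apoe to 0.47 for Apom, with an SD between the genes of 0.21.

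At a milder threshold of 1.2-fold, Apom was higher and Apoe was lower. Of the genes above the floor, 10.6% were higher by this much and 12.7% were lower. Among the 1872 bright genes 18.5% passed 1.2-fold in either direction, so 2 of 10 is close to that background share. All 10 differences lay within the central 95% of the bright genes, which ran from -0.42 to 0.50.

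**Figure D1:**
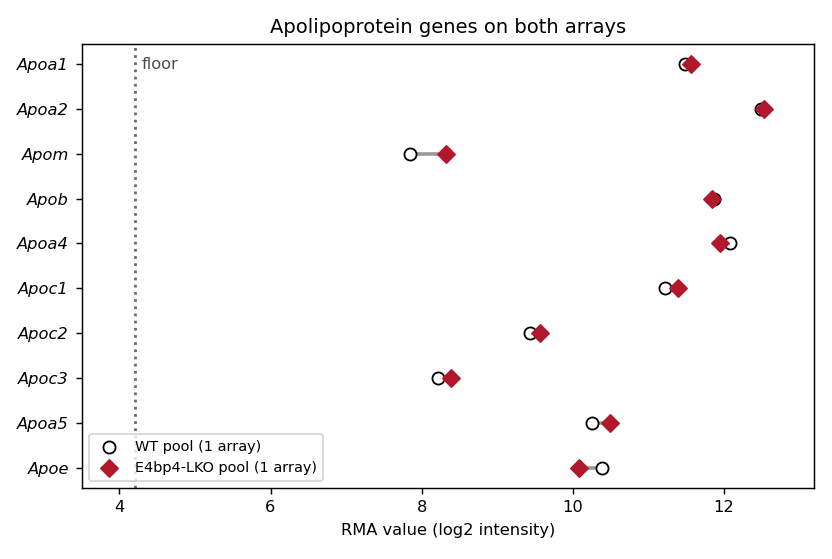
RMA value (log2 intensity) of each apolipoprotein gene on the WT array (open circles) and the E4bp4-LKO array (red diamonds), 1 array of pooled RNA each, with the floor of 4.20 dotted. The paired symbols nearly overlap for most genes and are farthest apart for Apom and Apoe.

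Among the genes for proteins of high density lipoprotein (HDL), Apom showed the largest difference of the 10. It encodes apolipoprotein M, an HDL protein that carries sphingosine 1-phosphate. Its value was 7.85 on the WT array and 8.32 on the E4bp4-LKO array, a difference of 0.47 or 1.39-fold. Of the 1872 bright genes, 57 (Apom included) were higher by at least this much, and 4.86% differed by as much in either direction. Apom has the lowest mean of the 10 and so sets the cut for bright genes. Among all genes above the floor, 6.34% differed by as much. Apoa1, the main structural protein of HDL and the activator of the enzyme LCAT, was at 11.48 and 11.56, a difference of 0.08. Apoa2, the second most abundant HDL protein, was at 12.49 and 12.53, a difference of 0.05. These are 1.06-fold and 1.03-fold, with both genes near the top of the scale.

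The genes of the proteins tied to particle formation differed little, with slightly lower values on the E4bp4-LKO array. Apob, the non-exchangeable scaffold of VLDL, was at 11.88 on the WT array and 11.84 on the E4bp4-LKO array, a difference of -0.03 and the smallest of the 10. Apoa4, which is made by intestine and, in mice, also by liver, and which has been linked to the packing of triglyceride into large VLDL, was at 12.08 and 11.96, a difference of -0.13. Differences at least as large as that of Apoa4 were seen in 46.7% of the bright genes, and as large as that of Apob in 85.4%.

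The 4 genes whose proteins act on triglyceride lipolysis were all on the higher side, with a median difference of 0.17. Of the bright genes 45.6% were higher, as were 11 of 14 hepatocyte markers. Apoa5, which promotes clearance of triglyceride-rich particles, was at 10.26 on the WT array and 10.49 on the E4bp4-LKO array, a difference of 0.23 or 1.17-fold. Apoc1, which slows lipolysis and receptor uptake, was at 11.22 and 11.39, a difference of 0.18. Apoc3, an inhibitor of lipoprotein lipase and of remnant uptake, was at 8.22 and 8.39, a difference of 0.17. Apoc2, the activator that lipoprotein lipase needs, was at 9.43 and 9.57, a difference of 0.13, which becomes 0.22 when a probe set shared with Apoc4 is averaged in. Activators and inhibitors of lipolysis were thus on the same side, which was not tested. Differences of at least these sizes were seen in 24.1% of the bright genes for Apoa5 and in 44.7% for Apoc2 (at 0.13).

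Apoe, the ligand through which remnant particles bind hepatic receptors, was the gene with the largest difference in the lower direction. Its value was 10.39 on the WT array and 10.09 on the E4bp4-LKO array, a difference of -0.30 or 1.23-fold. Of the bright genes, 107 (Apoe included) were lower by at least this much, and 13.9% had as large a difference in either direction. That share was 18.4% over all genes above the floor. Apoe is made by macrophages as well as hepatocytes. All 17 macrophage markers measured lay above the floor, and 11 were lower on the E4bp4-LKO array, as were 54.5% of all genes above it. The list median was -0.07. Of the 15 markers above the floor on both arrays, 9 were lower (median -0.05). The summed linear intensity of all 17 was 3213 on the WT array and 3206 on the E4bp4-LKO array. Within that list Gpnmb and Trem2, genes of lipid-laden macrophages, differed by -1.98 and -0.67 (Gpnmb falling under the floor in the E4bp4-LKO pool, at 4.06), while the Kupffer cell gene Clec4f differed by 0.17. At 1.2-fold the list was split, with 6 markers lower and 4 higher. The 4 were Lyz2 (0.40), Timd4 (0.35), Marco (0.32) and Vsig4 (0.30). In RNA of whole liver, fewer cells of a type and less RNA per cell cannot be told apart, and the part of macrophages in the Apoe difference was not tested.

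**Figure D2:**
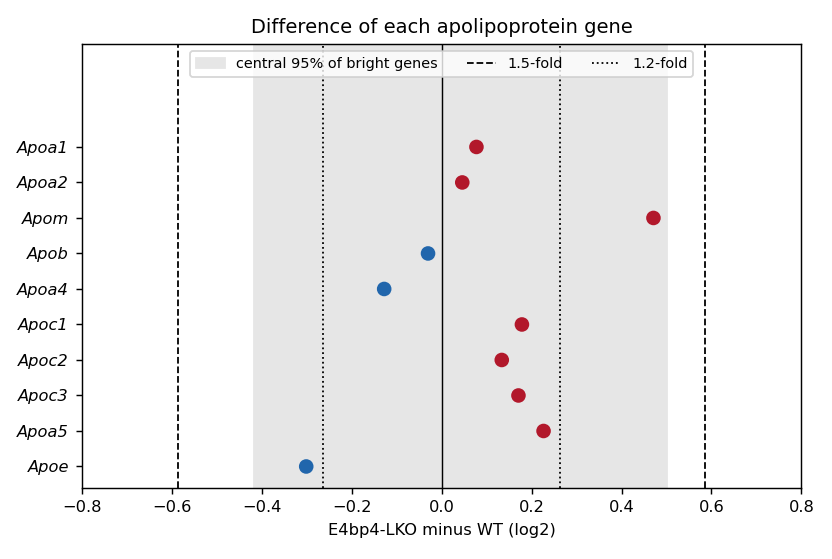
Difference between the arrays (E4bp4-LKO minus WT, log2) for each apolipoprotein gene, red where higher and blue where lower, with 1.2-fold (dotted) and 1.5-fold (dashed) marked. The grey band is the central 95% of the 1872 bright genes (mean of at least 8.09), and all 10 points lie inside it.

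The hepatocyte markers were also on the higher side on the E4bp4-LKO array. Of 14 measured markers 11 were higher, with a median difference of 0.12, close to the apolipoprotein median of 0.11. Of all genes above the floor 45.5% were higher and 54.5% were lower, the background for the marker counts given here. The fibrinogen chain genes Fga, Fgb and Fgg differed by 0.11, 0.13 and 0.18, and Cps1, the first urea cycle enzyme, by 0.30. Markers of other tissue moved the other way or unevenly. The 11 markers of stellate cells and fibroblasts were all lower, with a median of -0.56 (-0.54 over the 10 above the floor on both arrays) and a summed intensity of 2457 against 1889. Skeletal muscle markers were lower for the 5 above the floor on both arrays, with a median of -0.91. Another 3 passed the floor only through the WT array, and the 8 together summed to 694 against 342. Endothelial markers were lower for 7 of 8 (median -0.29). Of the squamous epithelium markers, Sprr1a (-2.22) and Ly6d (-1.91) lay above the floor on both arrays and were lower. Krt4, Krt13 and Krtdap passed it only through the E4bp4-LKO array, with Krt4 at 3.90 and 6.85, so they could only be higher. The part of this tissue make-up in the apolipoprotein differences was not tested. Since intestine also makes Apoa1, Apoa4 and Apob, enterocyte markers were read as well. Of the 8, 6 lay below the floor, among them villin (Vil1), lactase (Lct) and sucrase-isomaltase (Sis). The other 2, Fabp2 and Anpep, differed by 0.13 and -0.23.

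Many of the 10 genes are neighbours on the chromosome. In the RefSeq gene table of GRCm38.p6, used only for gene order, Apoa1, Apoc3, Apoa4 and Apoa5 follow each other, and Apoc2, Apoc4, Apoc1 and Apoe form another run. In neither run did all genes lie on one side. Between Apoc3 (0.17) and Apoa5 (0.23), Apoa4 was at -0.13, a gap of 0.35 to Apoa5. In the other run Apoc1 and Apoe, direct neighbours, were apart by 0.48, with Apoc1 higher and Apoe lower. The measured genes flanking that run were lower on both sides, Clptm1 next to Apoc2 at -0.17 and Tomm40 and Nectin2 beyond Apoe at -0.13 and -0.27. Around the first run Sik3, Zpr1 and Bud13 were at 0.03, -0.02 and 0.21. Apoc4 had no probe set of its own and was not analysed here.

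**Figure D3:**
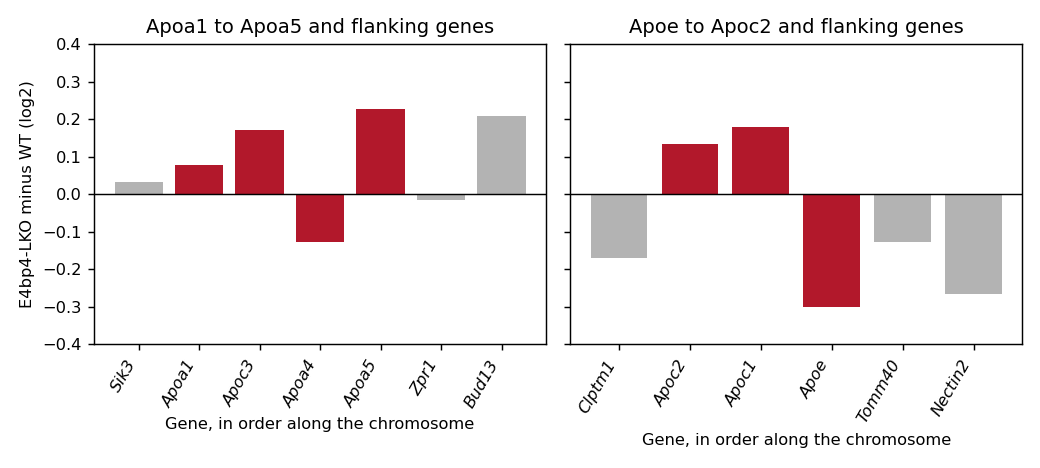
Difference between the arrays (E4bp4-LKO minus WT, log2) for the genes of both apolipoprotein clusters (red bars) and for measured flanking genes (grey bars), in chromosomal order but not to scale. Apoa4 points down between Apoc3 and Apoa5, and Apoe points down beside Apoc1.

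Because E4BP4 binds the D-box, the 250 bases before each annotated start of the apolipoprotein genes were read for it. RefSeq promoter sequences were at hand for 8 of the 10 genes (12 starts); Apoc1 and Apoc3 had none. The D-box was searched as TTANGTAA on both strands. It was in none of the 8, and 2.44% of the 27025 genes with a promoter sequence hold it within 250 bases. The ROR and REV-ERB half-site TAGGTCA (2.55% of genes) and GGTCANAGG, part of a direct repeat used by HNF4A and PPARA (1.69% of genes), were in none of the 8 either. The E-box CACGTG, used by USF and clock activators, was in 1 of the 8, Apoa5, and in 6.86% of all genes. No match in this window says only that these letters are not there. Shown are Apom, the gene with the largest difference, at chr17:35131802-35132051 (minus strand), and Apoa5, the gene with a match, at chr9:46268358-46268607 (plus strand). Both are from RefSeq on GRCm38.p6 and run 5′ to 3′. The capitals mark the E-box, which begins 82 bases before the first of the annotated starts of Apoa5.
Apom: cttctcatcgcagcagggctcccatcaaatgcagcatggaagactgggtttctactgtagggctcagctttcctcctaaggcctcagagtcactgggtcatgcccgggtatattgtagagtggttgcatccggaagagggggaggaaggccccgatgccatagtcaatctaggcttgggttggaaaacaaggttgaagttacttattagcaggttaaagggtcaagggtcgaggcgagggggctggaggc
Apoa5: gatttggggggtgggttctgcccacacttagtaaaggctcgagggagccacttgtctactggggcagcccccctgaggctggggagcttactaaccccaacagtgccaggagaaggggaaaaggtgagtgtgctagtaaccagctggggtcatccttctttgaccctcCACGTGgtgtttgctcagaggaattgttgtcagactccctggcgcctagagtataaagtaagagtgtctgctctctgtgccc

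The partners of the apolipoproteins were read from lists of genes, of which 7 cover the steps from particle assembly to uptake. In VLDL assembly and secretion, 21 genes lay above the floor. Their median difference was -0.01, with 9 positive and 12 negative. Only Ces1d, a lipase that supplies triglyceride for VLDL, passed 1.5-fold, at 8.86 on the WT array and 9.47 on the E4bp4-LKO array (0.61). It belongs to a family of near-identical carboxylesterases whose signals may be shared. Mttp, which loads lipid onto apolipoprotein B, differed by -0.16, the membrane protein gene Erlin1 by -0.33 and the phospholipase-like gene Pla2g12b, needed for VLDL secretion, by 0.32. Creb3l3, a factor that activates Apoa4, Apoa5 and Apoc2, differed by -0.17.

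The 5 genes of Apob mRNA editing, which makes the shorter apolipoprotein B48, stayed under 1.2-fold, with 4 lower and 1 higher. Of all genes above the floor 54.5% were lower, and only 10.6% were higher and 12.7% lower by 1.2-fold or more. Apobec1, the deaminase, was at 8.09 on the WT array and 7.89 on the E4bp4-LKO array (-0.21), and its cofactor gene Rbm47 and the RNA-binding protein gene Syncrip differed by -0.16 and -0.15. A1cf, the other cofactor gene, differed by 0.08. The editing of the Apob transcript itself cannot be read from these values.

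In HDL formation and remodelling, 8 genes were measured, 4 on either side of 0 and none past 1.5-fold. The median was -0.02, and 0.08 when the floor was raised to the 75th percentile. The cholesterol exporter gene Abcg1 was at 6.29 on the WT array and 5.80 on the E4bp4-LKO array (-0.49). Pltp, the phospholipid transfer protein gene, differed by -0.29 and Gpld1, a phospholipase carried on HDL, by 0.30. Abca1, which loads lipid onto apolipoprotein A1, differed by -0.13, the HDL receptor gene Scarb1 by -0.13 and Lcat, which esterifies HDL cholesterol, by 0.08.

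Of 9 lipoprotein receptor genes above the floor, 8 were lower on the E4bp4-LKO array, as were 54.5% of all genes above the floor. Lrp1 (-0.01), Lsr (-0.02) and Stab2 (-0.03) were close to 0. The median was -0.15, and -0.03 with a floor at the 75th percentile. Vldlr, a receptor that binds apolipoprotein E, was the only one past 1.5-fold, at 5.24 on the WT array and 4.52 on the E4bp4-LKO array (-0.72). Sdc1, a heparan sulfate proteoglycan of remnant uptake, was the only one higher (0.33), and Mylip, which marks receptors for degradation, differed by -0.27.

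Among the 7 genes of lipolysis control above the floor, Angptl8, whose product restrains lipoprotein lipase, was higher, at 8.74 and 9.65 (0.91). The lipase gene Lpl was at 5.54 and 4.95 (-0.59), which passed 1.5-fold as deposited but not after centring or removal of an intensity trend, and which drops out with the higher floor. Pcsk6, a proprotein convertase, differed by -0.36. The list's median was -0.09.

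Of 32 measured regulators above the floor, 17 were higher and 15 lower (median 0.02), where 45.5% of all genes above the floor were higher. Nr1d1, which encodes REV-ERBα, a repressor reported to act on Apoc3, was at 9.56 on the WT array and 8.91 on the E4bp4-LKO array (-0.65). Dbp, the D-box activator, was at 9.72 and 8.65 (-1.08). Besides these and Nfil3, the targeted gene, only Foxa3, a forkhead factor of hepatocytes named here after its value was seen, passed 1.5-fold (0.63). Past 1.5-fold in either direction were 3.57% of all genes above the floor. Hnf4a, which drives many apolipoprotein genes, differed by 0.13 and Rora by 0.12. Nr1d2, Tef and Hlf, relatives of Nr1d1 and Dbp in the same list, differed by 0.04, -0.22 and -0.03. Nr1d1 and Dbp follow the daily clock, and a difference in the hour of collection cannot be told apart from genotype here.

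**Figure D4:**
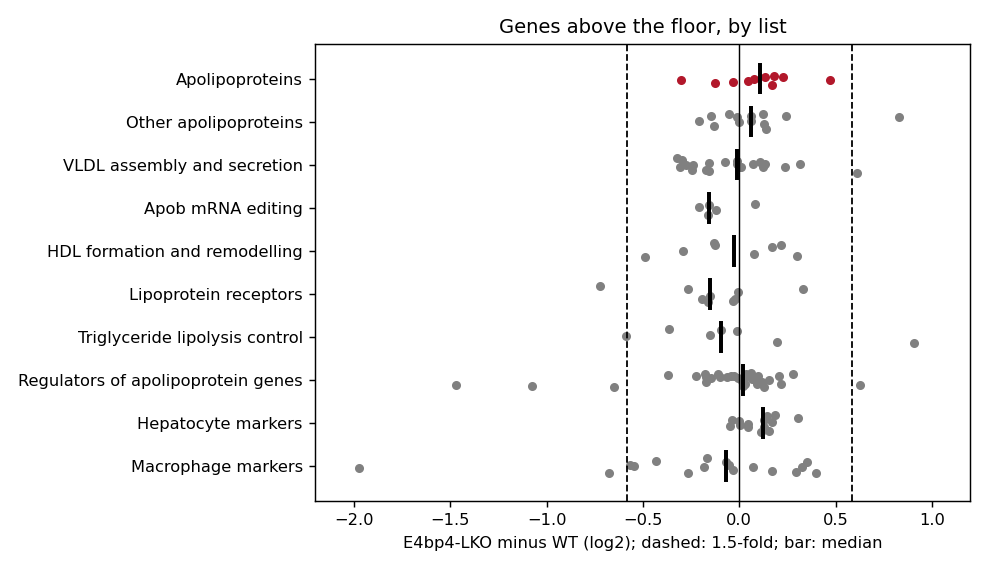
Difference between the arrays (E4bp4-LKO minus WT, log2) for the genes above the floor of each list, 1 point per gene, with the list median as a black bar and 1.5-fold dashed. The apolipoproteins (red) sit between -0.30 and 0.47 and do not reach either dashed line, whereas single genes such as Angptl8 (0.91) and Vldlr (-0.72) do.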

How the data were processed

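Liver RNA pooled from several mice was measured on 1 array per genotype. The authors deposited 1 log2 intensity for each probe set and array. Per the submitters' processing notes, RMA and R 3.4.0 were used; RMA corrects background, equalises the array distributions and summarises probes, which narrows the differences of dim genes. The genome build and scanner values were not used here. Of 41345 probe sets, 23521 have 1 gene symbol in the platform annotation, 1814 several and 16010 none; only the first kind was used, averaged per gene. The 10 members' symbols matched RefSeq through their Entrez identifiers. The members, the lists and the rule for naming genes (all members, the 3 list genes above the floor with the largest absolute difference, and well-known members) were chosen with earlier results of these data known. The promoter search was added after the values were seen. With 1 array a group no test or interval can be given, and the number of arrays limits the precision. For 555 genes with 2 probe sets, the within-gene SD of the E4bp4-LKO minus WT difference, pooled as a root mean square, was 0.22. It measures probe disagreement only. Alternatives were the brightest probe set, centring, removal of a running median over 501 genes, shared probe sets, other floors and 1.2-fold. Scripts (Python 3.11.15, pandas 2.3.3, numpy 2.4.6) were tested on simulated data.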

Additional observations from a re-analysis of the deposited data

How the results depend on the processing

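No paired analysis was possible because each genotype is 1 array, and no replicate could be left out. Each of the 10 apolipoproteins kept its sign under every alternative run on it, and none came to 1.5-fold. These alternatives could change little, so the kept signs say nothing on whether the differences recur. Each gene has 1 probe set of its own, so the brightest probe set is the same one. Centring shifts all genes alike, and only Apoc2 had a shared probe set to average in. Apoc2 moved most, from 0.13 to 0.22 when a probe set shared with Apoc4 was averaged in; the others moved by at most 0.01. The apolipoprotein median ran from 0.11 to 0.12. At 1.2-fold, 1 apolipoprotein was higher and 1 lower. Past 1.5-fold were 396 of the 11090 genes above the floor (3.57%), and 660 of all 22180 genes without a floor. The count was 156 with a floor at the 75th percentile. At 1.2-fold it was 2584 above the usual floor, with 10.6% of those genes higher and 12.7% lower. Of the partner list medians, that of HDL remodelling turned from -0.025 to 0.0753 and that of the receptors went from -0.15 to -0.0339 with the floor at the 75th percentile. That of the other apolipoproteins went from 0.06 to 0.01 without a floor. These medians are small, and no spread between arrays is at hand to judge such moves. Among the counts, at 1.2-fold, VLDL assembly had 2 higher and 4 lower, HDL remodelling 1 and 2, receptors 1 and 2, lipolysis control 2 lower, and regulators 2 higher and 4 lower. VLDL assembly had 1 lower with the brightest probe sets. Without a floor, the other apolipoproteins had 2 higher. With the floor at the 75th percentile, receptors and lipolysis control each had 0 lower and regulators 2. Lipolysis control also had 0 lower after centring and after removal of the running median, since Lpl (-0.59) lies at the threshold. The 7 apolipoproteins other than Apom, Apoe and Apoa5 differed by less than the probe disagreement of 0.22, and 1 array a group cannot show whether such differences recur.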

Other observations

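Of 23 measured apolipoproteins and lipoprotein-bound proteins outside the main 10, 13 lay above the floor, with a median difference of 0.06, 7 higher and 6 lower. Saa2, an acute phase apolipoprotein of HDL, was the only one past 1.5-fold, at 7.97 on the WT array and 8.79 on the E4bp4-LKO array (0.83); its sequence is close to that of Saa1, so its signal may be shared. Pon1, an HDL-bound esterase, differed by 0.24 and Apoo, a mitochondrial protein of the family, by -0.21. A brighter probe set that the annotation assigns to both Apoo and Apoo-ps differed the other way, by 0.07. Apof and Apon, both secreted by liver, differed by 0.13 and 0.14, Apoh by -0.002 and Clu by -0.14. Of the apolipoprotein L genes, Apol7a, Apol9a and Apol9b lay above the floor, at 0.06, -0.01 and 0.13. Apol8 differed by 0.73 but lay below the floor, at 2.92 and 3.65.

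A probe set that the annotation assigns to both Apoc4 and Apoc2 was at 10.66 on the WT array and 10.97 on the E4bp4-LKO array, a difference of 0.31, beside 0.13 for the probe set of Apoc2 alone. The summed linear intensity of the 10 apolipoproteins was 22871 on the WT array and 23234 on the E4bp4-LKO array, a ratio of 1.02. The hepatocyte markers gave a ratio of 1.05 by the same sum.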
